A study of Canis lupus familiaris with 77 samples.

Results

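The colon-enriched miRNA cfa-miR-147 was 1 of the 650 miRNAs with at least 1 read in a tissue atlas of the beagle dog. It was chosen by its tissue pattern, that is by its RPM (its reads per 1000000 miRNA reads of a library) in colon set against the other tissues, so its levels are given here as a description, without a test. No other row of the table carried the name miR-147. The atlas was made by small RNA sequencing (miR-seq) of 16 tissues from 5 untreated male beagle dogs of 10 months, perfused with buffered saline before the organs were taken. The 76 libraries used here comprised 5 in each of 14 tissues, 4 of colon (replicates 1, 2, 3 and 5) and 2 of sciatic nerve. Colon replicate 4 was labelled but carried no values. The study describes the nerve samples in more than 1 way, as individual and as pooled RNA, and which of these holds for the 2 used here is not settled. The labels gave no dog number, so replicate numbers only name the libraries and do not join tissues of a dog. All were whole-tissue homogenates or plasma, so fewer cells of a type and less RNA per cell cannot be told apart in any value below.

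miRNAs are short RNAs that are loaded into Argonaute proteins and lower the output of mRNAs to which their seed pairs. miR-147 is best known in macrophages, where Toll-like receptor signalling induces it and where it dampens the release of inflammatory cytokines. In humans the homologous miR-147b is cut from the transcript of C15orf48 (NMES1), a gene for a small mitochondrial protein, and one of its targets is NDUFA4, a subunit of cytochrome c oxidase. The colon and the small intestine are lined by an epithelium that is marked by the miR-200 family and by miR-192, miR-194 and miR-215, over a wall of smooth muscle that is marked by miR-143 and miR-145. In the dog RefSeq gene table, which is of another genome assembly than the read alignment and so served for names only, MIR147 was listed between SPATA5L1 and SLC30A4, and 0 other listed genes overlapped it.

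Library totals ran from 157871 to 7896424 miRNA reads, with a median of 1364823, so that the 3 reads which a count of 0 allows stand for between 0.38 and 19 RPM. In the gut, 3 libraries stood apart. Duodenum replicates 3, 4 and 5 had summed levels of the epithelial list (miR-200 family, miR-192, miR-194, miR-203, miR-215 and miR-375, 16 rows) of 36698, 6501 and 99495 RPM, against 343311 and 546341 RPM in duodenum replicates 1 and 2. Their summed erythroid list (miR-144, miR-451 and miR-486, 4 rows) was 22920, 74504 and 33939 RPM, against at most 10556 RPM in every other gut library. Their summed smooth muscle and fibroblast list (17 rows, among them miR-143, miR-145 and miR-199) was 619186, 415550 and 215954 RPM. In duodenum replicates 1 and 2 that list was at 144108 and 89898 RPM, and in the other segments it reached 446281 RPM. Results that rest on the duodenum are therefore given with and without these 3 libraries.

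In the colon, miR-147 was read 578 times in replicate 1, 50 times in replicate 2, 116 times in replicate 3 and 850 times in replicate 5. As RPM these were 98.7, 76.1, 122 and 197, with a mean of 124 ± 52.7 (SD, n = 4). All 4 colon libraries were above every one of the 72 other libraries, but the margin was narrow, since the lowest colon library (76.1 RPM) lay just over the highest ileum library (73.2 RPM). The Wilson 95% interval of colon replicate 2 was 57.7 to 100.3 RPM and that of ileum replicate 2 was 61.3 to 87.3 RPM, so the order of these 2 libraries is within counting error. When all libraries were thinned to the smallest total, the lowest colon library (50.7 RPM) fell below the highest ileum library (76.0 RPM), so the separation of the libraries was lost at that depth while the order of the means was kept. These intervals and the limit of 3 reads cover counting error only, since reads from PCR without molecular identifiers are not independent molecules. Even in the colon miR-147 was a miRNA of middling abundance. It ranked between 114 and 133 among the 377 to 486 miRNAs detected in each colon library.

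**Figure D1:**
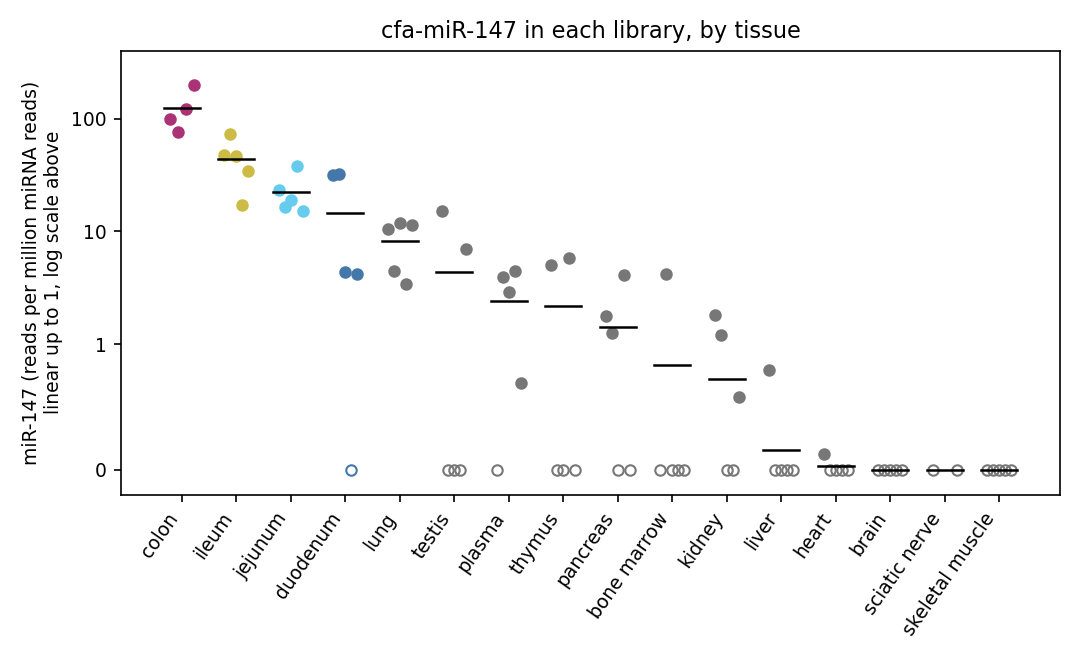
Level of cfa-miR-147 in each of 76 libraries by tissue, in RPM on an axis that is linear up to 1 and logarithmic above; filled points are libraries with reads, open points libraries without a read, and bars tissue means. Tissues are ordered by mean, from colon (124 RPM) through ileum (43.8 RPM) to 3 tissues without any read.

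Along the small intestine the level was lower in each segment. In the ileum miR-147 was at 47.7, 73.2, 46.7, 17.2 and 34.2 RPM in replicates 1 to 5, from 292, 123, 40, 25 and 18 reads. In the jejunum it was at 23.1, 16.4, 19.0, 38.3 and 15.3 RPM, from 11, 33, 29, 127 and 19 reads. In the duodenum it was at 31.6, 32.6, 4.33, 0 and 4.21 RPM, from 14, 105, 6, 0 and 4 reads. The colon did not overlap with any of these segments, whereas ileum, jejunum and duodenum overlapped with one another. Means were 43.8 ± 20.5 RPM in the ileum (SD, n = 5), 22.4 ± 9.37 RPM in the jejunum (n = 5) and 14.6 ± 16.1 RPM in the duodenum (n = 5). The duodenum was split: its replicates 1 and 2 lay within the range of the jejunum, and its replicates 3, 4 and 5, the 3 with low epithelial and high erythroid lists, lay below every jejunum library. Without those 3 the duodenum mean was 32.1 RPM, above that of the jejunum, so a step from duodenum to jejunum was not seen once they were left out. In duodenum replicate 4 the count of 0 allows up to 2.33 RPM.

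**Figure D2:**
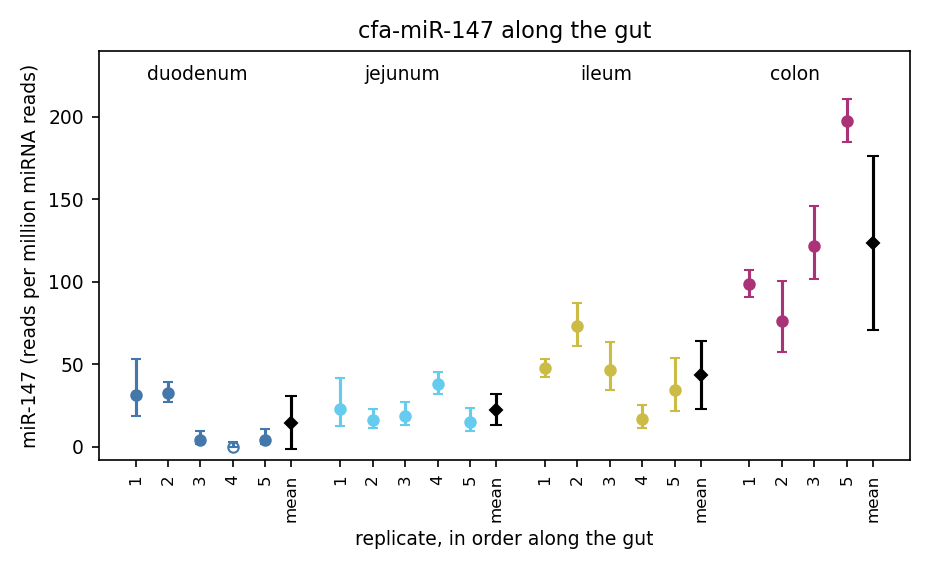
Level of cfa-miR-147 in the 19 gut libraries, in RPM, by segment and replicate; error bars of coloured points are Wilson 95% intervals (counting error only), the open point had no read, and black diamonds are means with SD. The 4 colon libraries sit between 76.1 and 197 RPM and the other gut libraries between 0 and 73.2 RPM.

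As ratios of means, the colon was 2.82 times the ileum, 5.51 times the jejunum and 8.49 times the duodenum, the last falling to 3.85 times without duodenum replicates 3, 4 and 5. A fit of all miRNAs in the 19 gut libraries, with edgeR and trimmed-mean (TMM) scaling, gave miR-147 a log2 difference of 1.72 (SE 0.59) for colon minus ileum, 2.41 (SE 0.61) for colon minus jejunum and 2.91 (SE 0.62) for colon minus duodenum. Since miR-147 was selected on its level in colon, nothing is read from the size of these differences against their errors. The median log2 difference of the 287 miRNAs fitted, which shows the centring of the scale, was 0.02 for ileum, -0.05 for jejunum and -0.16 for duodenum. Among the small intestinal segments the log2 differences were 0.69 (SE 0.57) for ileum minus jejunum, 1.19 (SE 0.59) for ileum minus duodenum and 0.50 (SE 0.59) for jejunum minus duodenum. Without duodenum replicates 3, 4 and 5, colon minus duodenum was 1.98, ileum minus duodenum 0.32 and jejunum minus duodenum -0.57, so the last of these changed sign. Colon minus ileum (1.65) and colon minus jejunum (2.55) moved little.

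Outside the gut miR-147 was rare. Of its 2579 reads over all libraries, 2440 (94.6%) were in gut libraries, which held 30.2% of all miRNA reads. Lung was the next tissue and the only one outside the gut with reads in all of its libraries, at 10.5, 4.47, 11.8, 3.41 and 11.3 RPM (mean 8.30 ± 4.03, SD, n = 5). The highest single library outside the gut was testis replicate 1 at 15.1 RPM, which rested on 4 reads in a library of 265248. The other testis libraries had 0, 0, 0 and 2 reads. In thymus, 2 of 5 libraries had reads (5.001 and 5.85 RPM, from 4 and 20 reads), and in plasma 4 of 5 (0.69 to 4.47 RPM, from 1 to 7 reads). Pancreas had reads in 3 libraries (up to 4.12 RPM) and kidney in 3 (up to 1.83 RPM). Bone marrow, liver and heart had reads in 1 library each. Brain, sciatic nerve and skeletal muscle had none, which over their pooled reads allows up to 0.306, 1.40 and 0.733 RPM. The order by mean was colon, ileum, jejunum, duodenum, lung, testis, plasma, thymus, pancreas, bone marrow, kidney, liver and heart. Past the first step every neighbouring pair overlapped in range, so among neighbours only colon over ileum was separated by its libraries. Every ileum and jejunum library was above every library outside the gut. The lowest jejunum library (15.3 RPM) lay just over testis replicate 1 (15.1 RPM), within counting error.

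In bone marrow, the source of the myeloid cells in which miR-147 is best known, the depth was low. The 5 libraries held 992876 reads in all, with 1 read of miR-147 in replicate 2, and the 3 reads that a count of 0 allows over the pooled libraries stand for 3.02 RPM. The leukocyte list (miR-142, miR-146a, miR-146b, miR-150, miR-155 and miR-223, 9 rows) summed to between 18806 and 30639 RPM in bone marrow and to between 11390 and 22793 RPM in colon. Plasma, where the leukocyte list reached 40794 RPM, had at most 4.47 RPM of miR-147. In thymus replicates 1 and 4, the leukocyte list was at 23577 and 23398 RPM and miR-147 at 5.001 and 5.85 RPM. Ileum replicate 5 had the highest leukocyte list of the ileum (27613 RPM), with miR-147 at 34.2 RPM. Ileum replicate 2, with the highest miR-147 of the ileum (73.2 RPM), had a leukocyte list of 24411 RPM. The part of leukocytes in the level of miR-147 was not tested.

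Against all other libraries, the colon mean of miR-147 was 17.6 times the mean of the rest (124 RPM against 7.03 RPM). Of all 650 miRNAs 5 (0.769%) had a colon mean more than 5 times that of the rest. Of these, cfa-miR-8842, hsa-miR-4516 and cfa-miR-8872 had 1 read each in colon, and the only other one with more was cfa-miR-196b, which is encoded in a HOX cluster and whose ratio was 6.32. cfa-miR-196b was at 531 to 1030 RPM in colon and reached 639 RPM in another tissue, so its libraries overlapped with those of other tissues. miR-147 was the only miRNA of the 650 (0.154%) with every colon library above every other library. Since the choice of miR-147 used this contrast, nothing further is read from these shares. The median of colon (110.3 RPM) was 1.51 times the highest library outside colon, an ileum library. Set against the 57 libraries outside the gut alone, whose mean was 1.79 RPM, the colon mean was 68.8 times as high. The ileum mean was 3.98 times the mean of all other libraries, below the ratio of 5 that 8 miRNAs (1.23%) passed in ileum.

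The summed epithelial list differed between gut libraries and moved with miR-147 in some of them but not in others. In the jejunum, replicate 4 had the highest miR-147 (38.3 RPM) and the lowest epithelial list (308270 RPM). Jejunum replicate 2 had the highest list of that segment (555666 RPM) and 16.4 RPM of miR-147. Within the colon, replicate 5 had the highest miR-147 (197 RPM), the highest epithelial list (240697 RPM) and the lowest smooth muscle and fibroblast list (138903 RPM), and replicate 2 had the lowest miR-147 (76.1 RPM), the lowest epithelial list (119476 RPM) and the highest smooth muscle and fibroblast list (446281 RPM). Colon replicate 5 also had the highest leukocyte list of the colon, 22793 RPM against 11390 to 13373 RPM in the others. A Toll-like receptor induced list was formed of miR-21, miR-132, miR-146a, miR-146b, miR-155 and miR-212 (10 rows). It summed to 35361, 34705, 48124 and 79483 RPM in colon replicates 1, 2, 3 and 5, the same order as miR-147. Most of that sum was miR-21, at 28850 to 67178 RPM in colon. The order was not particular to this list. The epithelial and leukocyte lists had it too, and the smooth muscle and fibroblast list had the reverse. The part of these lists in the spread of the colon was not tested. Per 100000 reads of the epithelial list, the colon libraries held 65.95, 63.7, 58.8 and 82.0 reads of miR-147, so the highest exceeded the lowest 1.39-fold, against 2.59-fold in RPM.

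On this epithelial scale the segments kept their order from colon to jejunum. The ileum held 24.3, 21.5, 15.2, 22.6 and 45.3 reads of miR-147 per 100000 epithelial-list reads, the jejunum 6.46, 2.95, 4.26, 12.4 and 3.88, and the duodenum 9.21, 5.97, 11.8, 0 and 4.23. Every ileum library was above every jejunum and duodenum library, and every colon library above every ileum library. The mean was 67.6 ± 10.04 in colon (SD, n = 4) and 25.8 ± 11.4 in ileum (SD, n = 5), a ratio of 2.62, near the 2.82 in RPM. The low duodenum replicates 3 and 5, at 11.8 and 4.23, were here within the range of the jejunum (2.95 to 12.4). The colon had less of the epithelial list (119476 to 240697 RPM) than the jejunum (308270 to 555666 RPM), and of the latter the miR-200 family made up only 7433 to 25328 RPM. A smaller list raises the ratio, so this scale is not neutral between segments. Its member miR-215 had medians of 2457 RPM in colon, 21317 RPM in ileum and 53125 RPM in jejunum. Per 1000 reads of the miR-200 family alone, an alternative chosen after seeing the data, miR-147 was at 14.7 to 18.9 in colon, 6.003 to 13.0 in ileum, 0.646 to 4.34 in jejunum and 0 to 3.46 in duodenum. Colon was thus again above each other gut library on this scale, where ileum replicate 5 was again the closest.

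**Figure D3:**
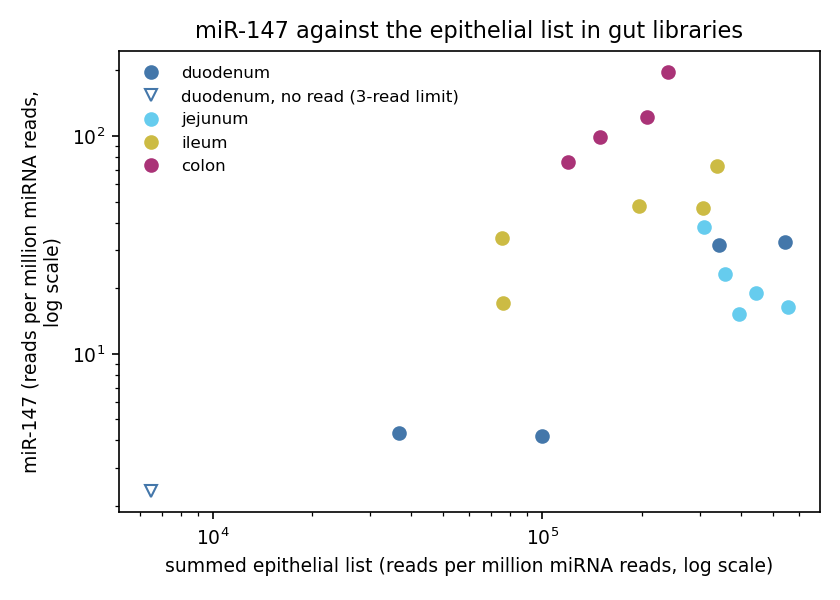
Level of cfa-miR-147 against the summed epithelial list in the 19 gut libraries, both in RPM on log axes; 1 point is 1 library, coloured by segment, and the open triangle is the duodenum library without a read, drawn at its 3-read limit. The 4 colon libraries (76.1 to 197 RPM) lie above jejunum and duodenum libraries that have more of the epithelial list.

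Outside the gut the epithelial scale gave another picture. Liver and pancreas had epithelial lists of at least 173537 and 173016 RPM, as high as those of the colon, with medians of 0 and 0.696 reads of miR-147 per 100000 epithelial-list reads. Lung, with an epithelial list of 8741 to 10552 RPM, held 39.0 to 127 reads of miR-147 per 100000, a range that spans the colon. The members of the list were not alike in these tissues: the miR-200 family was at 162 to 376 RPM in liver, 24349 to 26024 RPM in pancreas and 5178 to 10438 RPM in colon. In lung the ratio rested on 3 to 23 reads of miR-147 a library. Thymus, testis and bone marrow also had libraries above every colon library on this scale, from few reads. Thymus replicates 1 and 4 held 97.5 and 89.98 reads of miR-147 per 100000, from 4 and 20 reads. Testis replicates 1 and 5 held 307 and 168, from 4 and 2 reads. Bone marrow replicate 2 held 225, from 1 read. The other libraries of thymus, testis and bone marrow had no read of miR-147.

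The miRNAs whose pattern over tissues was most like that of miR-147 were found by Pearson's correlation over the 16 tissue medians of log2(RPM + 1), among 430 others with a tissue median of at least 10 RPM. They were rno-miR-21-3p (r = 0.76), cfa-miR-215 (0.75), hsa-miR-141-5p (0.73), cfa-miR-21 (0.72) and hsa-miR-142-3p (0.72). The tissues share libraries and depth across miRNAs, and these values are a description of 16 points. None of the 5 had colon as its highest tissue. miR-21, which is raised by inflammatory signals, and its opposite strand miR-21-3p come from the same hairpin and were both highest in ileum, with medians of 57124 and 239 RPM there against 36333 and 153 RPM in colon. miR-215, a p53-responsive miRNA of the intestinal epithelium, was highest in jejunum, at 53125 RPM against 2457 RPM in colon. miR-141-5p, of the miR-200 family, had its highest median in pancreas, at 244 RPM against 99.0 RPM in colon. miR-142-3p, of blood cells, was highest in ileum, at 1797 RPM against 687 RPM in colon. miR-147 thus shared with them high medians in ileum and jejunum but differed in its peak in colon. In duodenum miR-21-3p had a median of 36.8 RPM, below liver (141 RPM) and plasma (138 RPM). miR-142-3p was at 99.9 RPM in duodenum, and its median in bone marrow (816 RPM) was above that in colon. miR-215 in duodenum (6982 RPM) stayed above every tissue outside the gut.

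**Figure D4:**
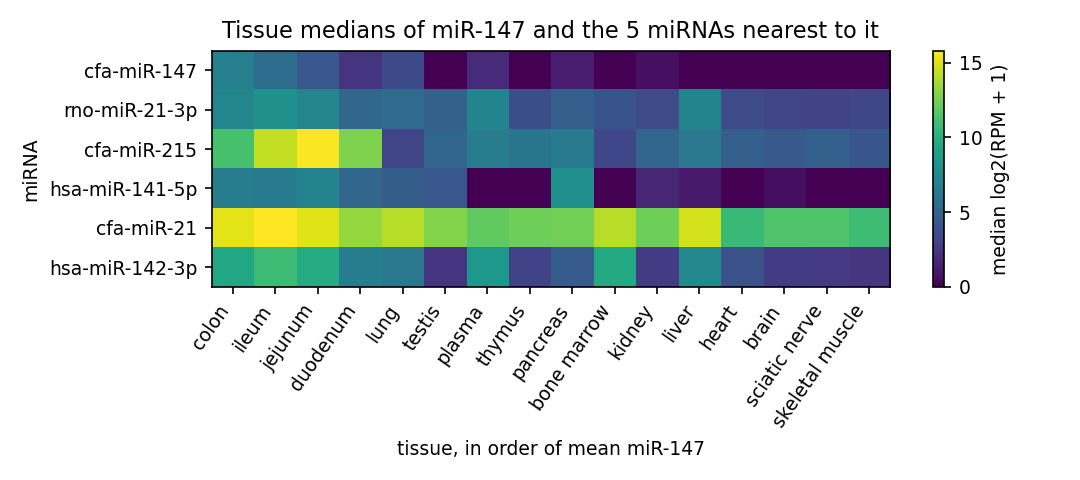
Tissue medians of log2(RPM + 1), by colour, for cfa-miR-147 and the 5 miRNAs nearest to it by Pearson's correlation over 16 tissues, with tissues in order of mean miR-147. The 5 share its high medians in ileum and jejunum, and each has its highest median outside the colon.

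The choice of correlation mattered for the names. By Spearman's rank correlation 0 of these 5 stayed among the nearest 5, which were then cfa-miR-203 (0.81), hsa-miR-200a-3p (0.80), cfa-miR-429 (0.80), cfa-miR-141 (0.79) and cfa-miR-200b (0.78). All 5 of these belong to the epithelial list. Without the colon, 3 of the 5 stayed, and miR-215 was the nearest (r = 0.77). Without duodenum replicates 3, 4 and 5 miR-215 was again the nearest (r = 0.80), and miR-21-3p (0.78) and miR-141-5p (0.77) stayed too, while cfa-miR-18a (0.76) and cfa-miR-203 (0.76) took the place of miR-21 and miR-142-3p.

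The other miRNAs of the same libraries were compared between colon and each segment of the small intestine. Mostly members of the lists are named below, so these do not stand for all that differed. These 3 comparisons share the 4 colon libraries. Counts over all miRNAs, in every fit, include miR-147 wherever it passed, and nothing is read from that. Between colon and ileum, 0 of 287 miRNAs passed an adjusted p of 0.05 upward (0%) and 0 downward (0%) in edgeR's quasi-likelihood test with Benjamini-Hochberg adjustment. At an unadjusted p under 0.05 there were 14 higher and 9 lower in colon, and DESeq2 called 2 and 3. Without duodenum replicates 3, 4 and 5, which share the estimate of spread, the counts were 7 and 5. The low-count filter was applied anew in that fit and kept another set of miRNAs. Its counts, here and below, are therefore not shares of the 287. No member of the 6 cell-type and pathway lists passed between colon and ileum with all libraries. Without those 3, 3 of 15 epithelial members were higher and 1 lower in colon, and 1 of 6 neural members was lower. These stand beside the 7 and 5 over all miRNAs. With all libraries, the median log2 difference was 0.76 over 15 epithelial members and -0.63 over 7 leukocyte members. It was -0.24 over 7 Toll-like receptor induced members, beside 0.02 over all.

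Of the 287 miRNAs fitted, miR-147 among them, 16 (5.57%) were higher and 24 (8.36%) lower in colon than in jejunum. The largest differences were of miRNAs outside the 6 lists. miR-196a and miR-196b were higher in colon, with log2 differences of 8.97 and 8.61, and miR-802 was lower (-10.1). These also had the largest differences between colon and duodenum with all libraries. The list members called against jejunum are named because they are few. All of these were chosen after their values were seen. miR-146b and miR-155, Toll-like receptor induced miRNAs that also belong to the leukocyte list, were both higher in colon. miR-155 was at 1294 ± 682 RPM in colon (SD, n = 4) and 547 ± 327 RPM in jejunum (SD, n = 5), a log2 difference of 1.195 (SE 0.35, edgeR adjusted p = 0.0334). miR-146b was at 732 ± 304 against 286 ± 134 RPM, a log2 difference of 1.34 (SE 0.40, edgeR adjusted p = 0.0334). These are 2 of 7 members tested in either list. miR-212-3p, of the Toll-like receptor list too, was lower in colon, with 2.86 ± 1.54 against 8.90 ± 3.25 RPM and a log2 difference of -1.52. The median of the 7 Toll-like receptor induced members was 0.26, beside -0.05 over all miRNAs, and that of the 7 leukocyte members 0.26. Of the epithelial list 1 of 15 was called, miR-215, which was lower in colon (log2 difference -4.80). The smooth muscle and fibroblast list had 1 of 13 called (miR-199a-5p, -0.89) and the neural list 1 of 6 (miR-124-5p, -4.15), both lower in colon. No erythroid member passed. Without duodenum replicates 3, 4 and 5 the counts over all miRNAs were 42 higher and 40 lower, and those of the epithelial list 3 higher and 5 lower of 15. miR-212-3p was not called without them. The calls of miR-146b and miR-155 depended on the libraries and settings: of 15 alternatives to this fit, 6 called miR-146b and 5 called miR-155, and of the 9 that left out 1 library, 2 called miR-146b and 2 called miR-155. Over the 15 their log2 differences stayed positive, between 1.26 and 1.66 for miR-146b and between 1.08 and 1.58 for miR-155, with edgeR or DESeq2 adjusted p up to 0.166 and 0.127.

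Of the 287 miRNAs fitted, miR-147 among them, 10 (3.48%) were higher and 22 (7.67%) lower in colon than in duodenum. miR-155 was again higher, with 1294 ± 682 RPM in colon against 309 ± 136 RPM in duodenum and a log2 difference of 1.71 (SE 0.35, edgeR adjusted p = 0.00468). miR-451 and miR-486, miRNAs of red blood cells, were lower in colon (-2.61 and -4.44), and neither was called without duodenum replicates 3, 4 and 5. All 15 alternatives called miR-155. Without those 3 duodenum libraries, the list members newly called higher in colon were miR-138a of the neural list (2.51), miR-146b (1.86) and miR-143 of the smooth muscle and fibroblast list (1.84), and those newly called lower were miR-141 (-2.92), miR-194 (-2.10) and miR-199a-5p (-1.02). miR-146b was called under none of the other 14 alternatives. The other members called with all libraries were miR-215 (-3.62), miR-214 (-1.31), miR-212-3p (-1.68) and miR-124-5p (-3.71), all lower in colon, of which miR-214 and miR-212-3p were not called without the 3 duodenum libraries. Over all miRNAs 27 were then higher in colon.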

How the data were processed

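miR-seq libraries were made by the authors from total RNA of each tissue. Each deposited count is a number of adaptor-clipped reads that the authors placed on CanFam3.1 without mismatch, leaving out reads with more than 10 locations, and that overlapped at least 70% of a dog, rat or human miRNA locus. The deposited RPM signal is the count per 1000000 miRNA reads of the library. Counts recomputed to RPM within 2.89e-09 (relative). miRNAs absent from a library were set to 0 reads. The deposited table held 1 sample name without a labelled sample, which was not used, and 1 labelled colon sample had no values. The Q-RT-PCR data were not analysed here.

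Gut libraries were fitted with edgeR 4.0.16 (quasi-likelihood test, TMM, its default low-count filter, 287 miRNAs kept, Benjamini-Hochberg adjustment over these), checked on simulated data. DESeq2 1.42.0 was an alternative. Labels do not state separate dogs for the replicates, so p-values measure the spread between these samples. miR-147 and the 6 lists were chosen with earlier results of these data known. Named by rule were miR-147 and the 5 miRNAs nearest by correlation. So were the 2 members of each list with the largest difference among those called between colon and ileum (none passed). Other miRNAs called between colon and another segment were named after their values were seen. No mature sequence is printed, since none was in the files used.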

Additional observations from a re-analysis of the deposited data

Results flagged for a closer look

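Among 21 groups of 4 or 5 libraries examined for a value far from the others, 3 were flagged, and chance flags about 1 in 20 groups. In each of them a single library held all reads of miR-147 and the other 4 had none. In such a group the gap takes up the whole range whatever the single value. The rate of 1 in 20 is therefore no guide here, and 3 flags are not read as an excess. Bone marrow replicate 2 was at 4.18 RPM from 1 read. Liver replicate 1 was at 0.798 RPM from 2 reads. Heart replicate 1, the deepest library of all, was at 0.127 RPM from 1 read. Each lies at or under the 3 reads that a count of 0 allows, so the difference from the other libraries of the tissue was not detectable at this depth.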

How the results depend on the processing

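No paired analysis was possible because the labels carry no dog number. Under TMM, DESeq2 and thinned scaling the means of miR-147 kept the order colon, ileum, jejunum, duodenum, but in libraries thinned to the smallest total the lowest colon library (50.7 RPM) fell below the highest ileum library (76.0 RPM). Without duodenum replicates 3, 4 and 5, an alternative chosen after seeing the data, the duodenum mean was 32.1 RPM and the log2 difference of jejunum minus duodenum was -0.57, reversed from 0.50. The ratio of colon to all other libraries was 1742 with medians in place of means, since the median of the others lies between 0 and a library with 1 read, and 68.8 without the other gut segments. The median of colon over the highest other library was then 7.31. Without bone marrow and plasma neither ratio moved by more than the spread between replicates. Leaving out each colon library put the ratio of means between 14.1 and 19.8 and the log2 difference of colon minus ileum, with any colon or ileum library left out, between 1.52 and 1.996. The same ranges were 2.39 to 2.70 for colon minus jejunum, 2.63 to 3.78 for colon minus duodenum, 0.47 to 1.03 for ileum minus jejunum, 0.90 to 2.09 for ileum minus duodenum and 0.19 to 1.32 for jejunum minus duodenum. The highest of each of the 3 differences from duodenum came without duodenum replicate 2.

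Counts of called miRNAs, which include miR-147 wherever it passed, were far less stable than the levels of miR-147. For colon against ileum, 1 was lower with library size only, with no filter on low counts, and with all 16 tissues in the fit. DESeq2 gave 2 higher and 3 lower, and a fit of both segments only gave 1 and 3. For colon against jejunum, 5 were lower with library size only and 11 with no filter, 39 higher with all tissues, and 38 higher and 38 lower with both segments only. For colon against duodenum, 8 were lower with library size only and 8 with no filter, and 4 higher and 1 lower with both segments only. Without duodenum replicates 3, 4 and 5, colon against ileum had 7 higher and 5 lower, colon against jejunum 42 and 40, and colon against duodenum 27 higher. Leaving out 1 library at a time gave 0 to 2 higher and 0 to 1 lower for ileum, 8 to 14 higher and 5 to 20 lower for jejunum, and 7 to 20 higher and 6 to 38 lower for duodenum, the last highest without duodenum replicate 2. The cause was not tested. Of the 5 miRNAs nearest to miR-147, 0 stayed by Spearman's correlation, 3 without the colon and 3 without duodenum replicates 3, 4 and 5.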
